A study of Mus musculus with 2 samples.

Results

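Interferon-stimulated genes are described here as a set of 45, found by symbol in the feature lists of both libraries. All 45 were listed, among 34184 genes in all. The set holds transcription factors and feedback genes (Irf7, Irf9, Stat2, Usp18, Parp14), the ubiquitin-like modifier Isg15 with its ligase Herc6, the IFIT proteins (Ifit1, Ifit2, Ifit3, Ifit3b), the OAS family (Oas1a, Oas2, Oas3, Oasl1, Oasl2), sensors and helicases of foreign nucleic acid (Ifih1, Ddx60, Zbp1), and restriction factors and other effectors (Rsad2, Bst2, Mx1, Mx2, Ifitm3, Samhd1, Slfn5, Slfn8, Trim30a, Rtp4, Xaf1, Ifi27l2a, Ifi44). It also holds the interferon-inducible GTPases (Gbp2, Gbp3, Gbp7, Ifi47), the PYHIN or Ifi200 family of DNA-binding proteins (Ifi203, Ifi204, Ifi205, Ifi207, Ifi209, Ifi211, Ifi213) and the PHF11 family (Phf11b, Phf11d). A group of 12 members known as strongly inducible (Isg15, Ifit1, Ifit2, Ifit3, Ifit3b, Irf7, Rsad2, Mx1, Oasl1, Oasl2, Usp18, Rtp4) is called the core members below.

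Single-cell RNA was measured in 2 mouse libraries, 1 from femur bone marrow and 1 from the marrow of ectopic bone. Ectopic bone was induced under the skin by bone morphogenetic protein 2 (BMP-2, 8 µg) on a β-tricalcium phosphate carrier (40 mg) and was taken 4 weeks after the implant, and the study set its marrow against that of the femur. Each library joined hematopoietic cells of wild-type C57BL6J mice with Cxcl12-abundant reticular (CAR) cells, the CXCL12-secreting stromal cells of marrow, of Cxcl12-GFP mice, in which GFP marks cells that express Cxcl12. For the CAR cells, collagenase freed the stroma, magnetic columns removed hematopoietic and endothelial cells, and dead cells were gated out of the sort. The number, age and sex of the mice and whether they were pooled are not given in the sources used here. With 1 library per tissue there is no replicate check, cells are not replicates, and no difference below was tested.

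Interferons are secreted proteins that bind receptors on the cell surface and, through JAK kinases, activate STAT factors. A complex that holds STAT2 and IRF9 binds the interferon-stimulated response element (ISRE) in promoters of these genes, while dimers of STAT factors bind the GAS element. Myeloid cells of marrow express many of these genes at a low level without infection, plasmacytoid dendritic cells are the specialised producers of type I interferon, and the Mx1 gene of C57BL/6 mice is known to give no working protein.

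The filters left 9755 cells of the femur and 6425 of the ectopic marrow, from libraries of 123009924 and 86018367 UMIs (unique molecular identifiers, which count RNA molecules). They fell into 25 clusters. Clusters were named from fixed marker lists, so that a class means cells like that type, and the members themselves were kept out of the clustering. The 6 classes described held 8896 femur and 5847 ectopic cells. The monocyte class had 921 and 626 cells (median UMIs 12436 and 16313), the neutrophil class 4485 and 2490 (8475 and 10280) and the T cell class 361 and 380 (8262 and 10506). The plasmacytoid dendritic cell class had 329 and 122 cells (12624 and 16299), the B lineage class 2562 and 2047 (6006 and 6450), and the CAR cell class 238 and 182 (9116 and 10262). The defining markers were present in their classes in both libraries: Cxcl12 stood at 8842 and 10219.6 CPM in CAR cells, and Ccr2 at 979 and 1187 CPM in monocytes. The libraries shared 26 barcode sequences, of which 21 were kept.

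Promoters of 36 members were found in the RefSeq table (GRCm38.p6), which gives 250 bases before to 50 after each gene's start. The core letters of the ISRE, GAAA, any 2 bases and GAAA again, occurred on 1 strand or the other in 24 of these 36 (66.7%) and in 1079 of 27025 genes (3.99%). The GAS letters TTCNNNGAA occurred in 6 members (16.7%) and in 2582 genes (9.55%). The following stretches end at the start site, are written 5′ to 3′ on the strand of the gene, and have the ISRE letters in capitals (TTTC, any 2 bases and TTTC is the same motif read on the other strand). The first 5 are core members that had more RNA in ectopic monocytes. They lie at chr4:156200819-156201018 (minus strand), chr19:34640689-34640888 (plus), chr19:34583329-34583528 (plus), chr19:34607757-34607956 (plus) and chr12:26456453-26456652 (minus).
Isg15: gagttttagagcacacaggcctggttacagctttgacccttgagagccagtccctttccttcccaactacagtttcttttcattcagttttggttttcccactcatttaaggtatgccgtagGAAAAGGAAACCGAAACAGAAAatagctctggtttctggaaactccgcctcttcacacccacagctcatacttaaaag
Ifit1: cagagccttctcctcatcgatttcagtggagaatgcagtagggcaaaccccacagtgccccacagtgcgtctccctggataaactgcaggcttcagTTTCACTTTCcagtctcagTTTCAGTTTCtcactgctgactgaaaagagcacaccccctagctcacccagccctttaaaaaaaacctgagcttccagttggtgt
Ifit3: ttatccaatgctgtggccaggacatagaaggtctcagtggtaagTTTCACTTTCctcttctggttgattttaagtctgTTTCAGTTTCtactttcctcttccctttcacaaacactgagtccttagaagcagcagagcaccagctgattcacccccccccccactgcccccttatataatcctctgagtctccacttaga
Ifit3b: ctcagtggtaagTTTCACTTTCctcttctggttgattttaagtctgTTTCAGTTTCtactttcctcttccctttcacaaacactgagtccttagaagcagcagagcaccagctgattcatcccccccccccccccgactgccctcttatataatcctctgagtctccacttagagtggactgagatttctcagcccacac
Rsad2: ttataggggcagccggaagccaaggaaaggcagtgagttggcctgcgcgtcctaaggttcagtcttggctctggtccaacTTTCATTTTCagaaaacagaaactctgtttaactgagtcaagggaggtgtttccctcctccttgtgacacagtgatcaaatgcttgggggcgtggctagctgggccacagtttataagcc
Isg15 had 3 overlapping matches, the first starting 78 bases before the start site. In Ifit3 and Ifit3b, which are neighbouring near-copies, the matches were spaced alike. Reads of such copies (Ifit3 and Ifit3b, the PYHIN, OAS, GBP, Schlafen and PHF11 families) may be counted for one another, so their values carry that uncertainty.

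The PYHIN genes are shown because several of them differed together between femur and ectopic CAR cells, while Ifi213 had no UMI in that class. They lie on the minus strand at chr1:173942493-173942572, chr1:173741810-173741889, chr1:173913047-173913126 and chr1:173599273-173599352.
Ifi203: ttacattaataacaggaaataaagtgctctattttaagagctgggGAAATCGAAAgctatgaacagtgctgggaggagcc
Ifi207: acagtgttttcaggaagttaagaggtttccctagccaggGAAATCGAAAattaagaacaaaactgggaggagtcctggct
Ifi211: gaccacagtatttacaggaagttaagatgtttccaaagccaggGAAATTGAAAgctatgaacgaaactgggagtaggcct
Ifi213: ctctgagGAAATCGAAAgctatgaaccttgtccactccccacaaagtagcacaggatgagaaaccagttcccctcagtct
All 4 had the letters, and in Ifi203, Ifi207 and Ifi211 the match began between 35 and 41 bases before the start. Bst2, at chr8:71537473-71537622 (minus), and Gbp2, at chr3:142620513-142620662 (plus), are shown because they differed in opposite directions in CAR cells.
Bst2: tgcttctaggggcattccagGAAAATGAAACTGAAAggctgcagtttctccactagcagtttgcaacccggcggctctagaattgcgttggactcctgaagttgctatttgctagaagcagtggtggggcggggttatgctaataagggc
Gbp2: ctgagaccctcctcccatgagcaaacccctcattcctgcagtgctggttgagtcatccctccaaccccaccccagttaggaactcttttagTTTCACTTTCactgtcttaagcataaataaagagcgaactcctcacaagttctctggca
Bst2 had 2 overlapping matches and Gbp2 had 1. A match is a description of letters, not of binding. Ifi204, Ifi27l2a, Mx1, Mx2, Oas2, Parp14, Rtp4, Usp18 and Zbp1 had no entry in the table.

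Levels are the UMIs of a gene summed over the cells of a class in 1 library and scaled to the total of that class as CPM, counts per 1e6 UMIs, with exact 95% Poisson intervals. CPM were not scaled by gene length. Intervals cover counting error only, and PCR copies were already merged by the UMIs. The summed CPM of the 12 core members was highest in a class outside the 6, the dendritic cells (85 and 134 cells), at 577 for the femur and 588 for the ectopic marrow. Monocytes stood at 331 and 478, neutrophils at 287 and 253, CAR cells at 287 and 286, and plasmacytoid dendritic cells at 236 and 183. T cells stood at 116 and 149.5 and the B lineage at 51.0 and 53.5, the lowest of the 6 in both libraries.

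Single members had their own order of classes. Over the 11 named classes, dendritic cells had the highest CPM of 18 members in each library, where 5.11% and 4.44% of 17122 genes had theirs. Monocytes led for 5 femur members and 11 ectopic ones (all genes 4.51% and 4.58%). For many of these leads the counting intervals of the highest and second classes overlapped. Among them were Parp14 and Xaf1 in femur dendritic cells, Oasl2 in ectopic dendritic cells, and Irf9 and Xaf1 in ectopic monocytes. The intervals were apart for others, such as Ifit2 and Ifit3 in dendritic cells of both libraries. Whether the 5 and 11 monocyte leads differ beyond counting error was not tested. The highest class was the same in both libraries for 28 of 45 members (62.2%) and for 67.6% of all genes. Bst2, a membrane tether that holds back budding virions and a surface marker of plasmacytoid dendritic cells in the mouse, stood at 1690.3 and 1759 CPM in that class, 302 and 481 in CAR cells and 4.18 and 6.03 in neutrophils. Ifitm3, which blocks virus entry at endosomal membranes, stood at 2472 and 2763 in monocytes, 1236 and 1411 in CAR cells, 712 and 719.7 in neutrophils, and 27.2 and 25.5 in the B lineage. Oas3, a synthase of the 2′-5′ oligoadenylates that switch on RNase L, and the helicase Ddx60 were highest in neutrophils in both libraries, Oas3 at 64.6 and 59.7 CPM and Ddx60 at 145 and 128. Ifi209 was highest in the B lineage in both, at 198 and 183.

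**Figure D1:**
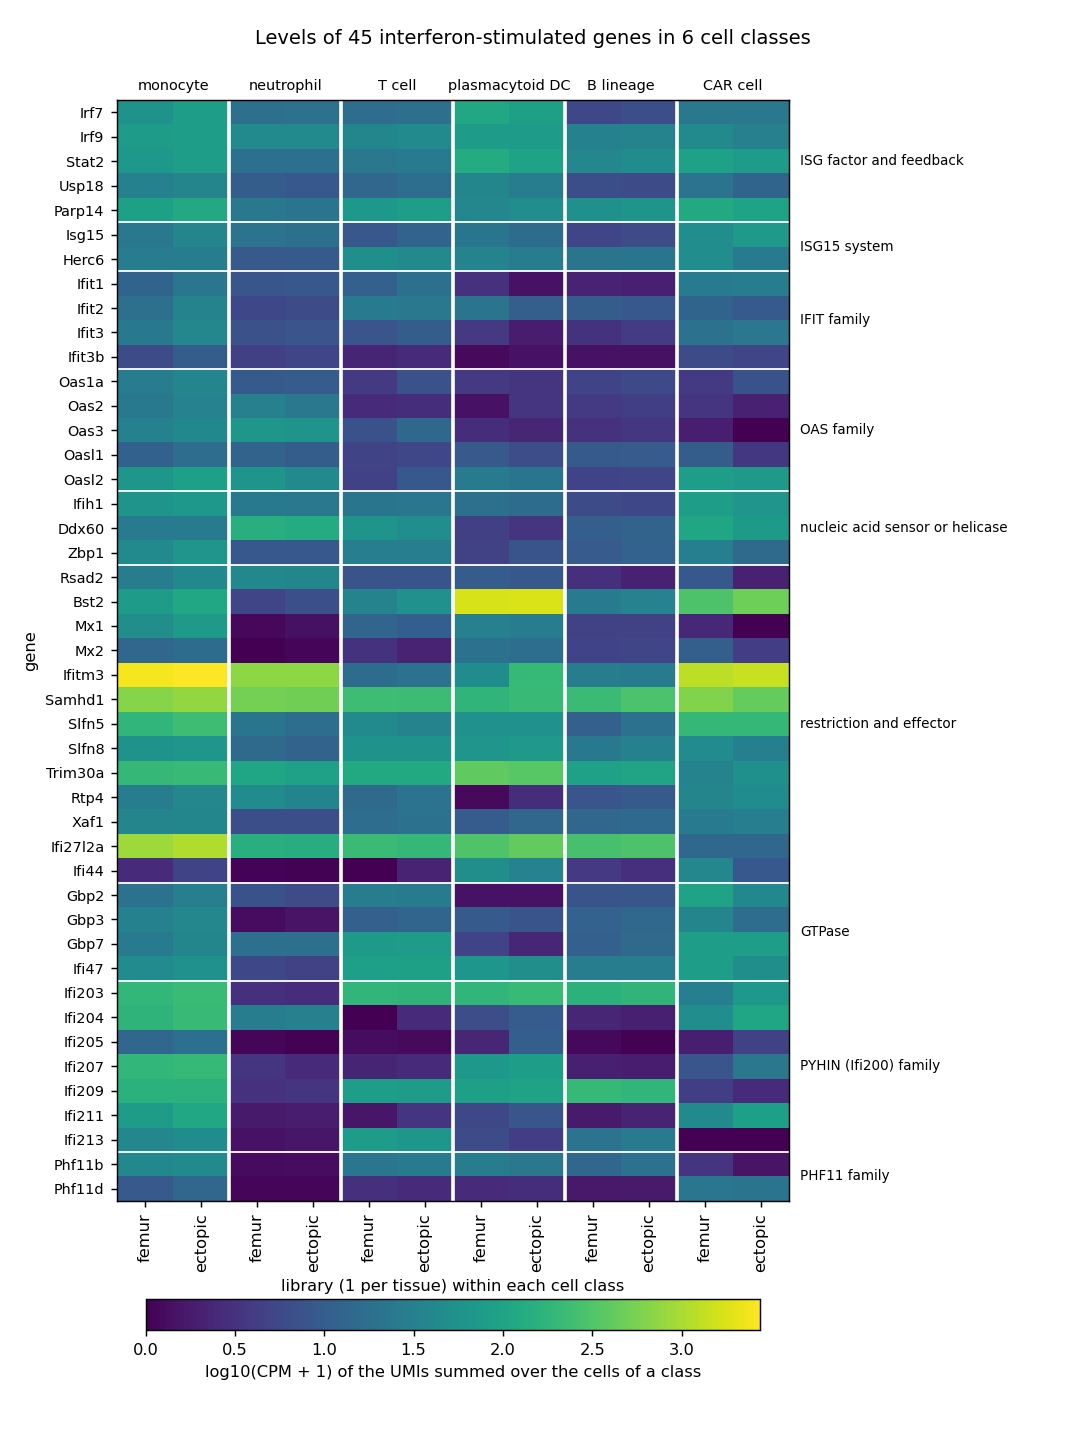
Levels of the 45 members (rows, grouped by role) in the 6 classes of both libraries (columns), as log10 of CPM + 1 of the class sum on a colour scale. Ifitm3 in monocytes (2472 and 2763 CPM) and Bst2 in plasmacytoid dendritic cells (1690.3 and 1759 CPM) are the brightest entries in their classes.

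Ratios are ectopic over femur. A member was measured in a class with at least 50 UMIs over both libraries, and it is counted as higher or lower from a ratio of 1.5, a limit of size with no test behind it. In monocytes, all 45 members were measured and all 45 had a ratio above 1, whereas 45.8% of all measured genes did. Among the members, 8 (17.8%) were at least 1.5-fold higher (2.29% of all measured genes were) and none was lower (3.23% were). The median log2 ratio of the members was 0.35, beside -0.02 over all genes. The counting interval of the ratio lay wholly above 1 for 36 members, and for 12.99% of all genes. The members were chosen with earlier results of these data known, and core members shared cells, as given below. These shares therefore describe the list and do not test it. In each of the other classes described, some measured members had a ratio below 1. The members' median log2 ratio was -0.07 in neutrophils, 0.08 in T cells, -0.20 in plasmacytoid dendritic cells, 0.17 in the B lineage and -0.04 in CAR cells. Whether these medians differ between classes was not tested.

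**Figure D2:**
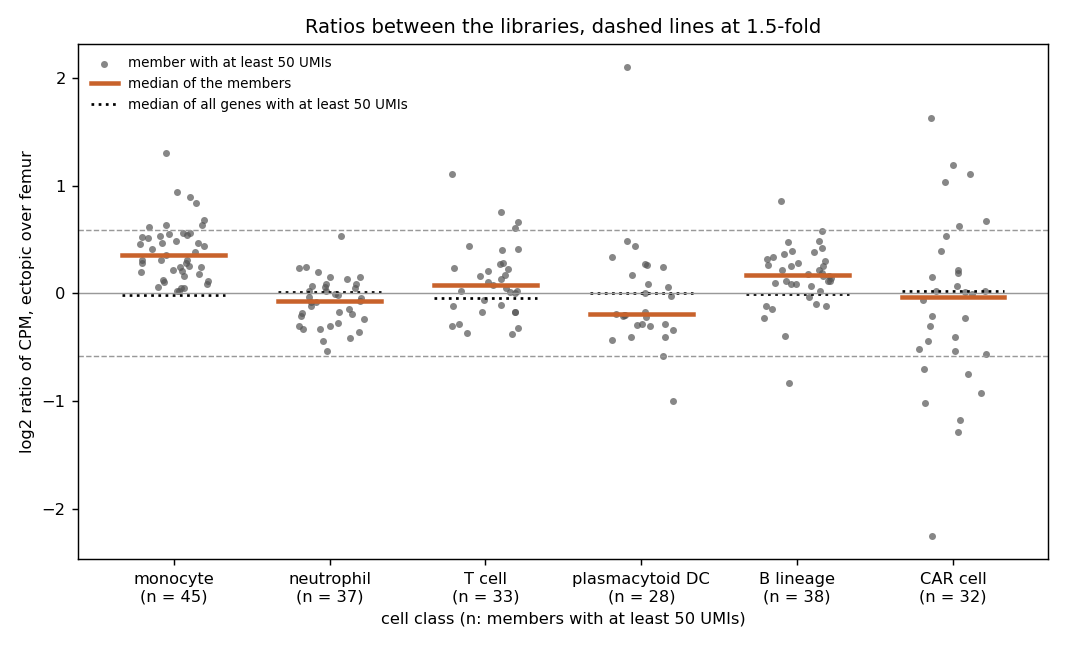
Ectopic over femur ratio of each measured member (points, log2 scale) in the 6 classes, with the members' median (solid), the median of all genes (dotted) and the 1.5-fold limits (dashed) drawn as lines. All 45 monocyte points lie above 0, the neutrophil points lie inside the limits, and the CAR cell points spread to both sides, with 6 above and 7 below the limits.

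The IFIT genes, whose proteins bind foreign RNA ends and hold back translation, had the largest ratios as a family in monocytes, with 4 of 4 at least 1.5-fold higher. Ifit2 stood at 17.6 CPM (interval 15.4 to 20.02) in femur monocytes and 33.7 (30.5 to 37.2) in ectopic monocytes, a ratio of 1.92 (1.63 to 2.27). Ifit1 stood at 11.7 and 21.6, a ratio of 1.85 (1.51 to 2.28). Ifit3b stood at 5.29 and 9.44 (1.79, 1.31 to 2.45) and its neighbour Ifit3 at 23.9 and 38.3 (1.60, 1.38 to 1.86). The ectopic value was the higher one for each of the 4, and the 2 Poisson intervals of Ifit2 did not overlap. The largest ratio of any member belonged to Ifi44, an interferon-induced cytoplasmic protein, but at a low level, 1.63 and 4.03 CPM (2.47, 1.45 to 4.35).

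Isg15, the modifier conjugated to proteins in the interferon response, stood at 22.7 and 35.3 CPM (1.55, 1.33 to 1.81). The guanylate-binding protein Gbp2, which attacks the membranes around intracellular microbes, stood at 18.4 and 28.2 (1.53, 1.29 to 1.82). Phf11d completed the 8, at 8.09 and 12.5 (1.55, 1.20 to 2.01). The other 7 core members had ratios between 1.15 and 1.47. Irf7, the factor that amplifies type I interferon production, stood at 56.8 and 83.7 (1.47, 1.34 to 1.62). Rsad2, or viperin, which makes a chain-terminating nucleotide, stood at 27.1 and 39.7 (1.47, 1.27 to 1.69), and the dynamin-like GTPase Mx1 at 48.5 and 69.2 (1.43, 1.28 to 1.59). Usp18, the protease that removes ISG15 and damps receptor signalling, stood at 31.4 and 36.0, and its interval held 1 (1.15, 0.998 to 1.32).

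By family, the median log2 ratio in monocytes was 0.86 for the IFIT genes, 0.46 for the OAS genes, 0.40 for the GTPases, 0.31 for the restriction factors, 0.28 for the factors and feedback genes, 0.24 for the PYHIN genes and 0.17 for the sensors. The 5 most abundant members had ratios between 1.12 and 1.28. Ifitm3 stood at 2472 and 2763 CPM, a ratio of 1.12 (1.10 to 1.14). Ifi27l2a, a small membrane protein, stood at 869.8 and 1078 (1.24). Samhd1, which depletes the nucleotides needed for reverse transcription, stood at 655 and 755 (1.15), Slfn5 at 182 and 233 (1.28), and Ifi203 at 188 and 218 (1.16). The smallest ratios were those of Ddx60 (25.6 and 25.9 CPM, 1.01), Ifi209 (157 and 159, 1.02), Herc6 (27.1 and 28.0, 1.03) and Xaf1 (35.8 and 37.1, 1.04), and each of these 4 intervals held 1.

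The monocyte class joined 3 clusters, called here by a leading gene. The Fn1-led cluster, with 603 femur and 474 ectopic cells, made up 65.5% of femur and 75.7% of ectopic monocytes. Its summed core level was the highest of the 3, at 497 and 662 CPM, a ratio of 1.33 (1.28 to 1.39). Within it, 43 of 45 members had a ratio above 1, against 48.6% of all genes, the exceptions being Ddx60 (0.900) and Xaf1 (0.978). In this cluster 6 members were at least 1.5-fold higher (2.74% of all genes were) and none was lower (2.58%), and the members' median log2 ratio was 0.29. The Adgre4-led cluster had a core level of 170.4 and 161 CPM (0.947, 0.725 to 1.23), and the Nrg1-led cluster 78.6 and 79.5 (1.01, 0.856 to 1.19). In the Nrg1-led cluster 12 of 32 measured members had a ratio above 1 (46.3% of all genes). The class sum covers both the values inside these clusters and their shares. With both libraries given the same cluster weights, the class median was 0.20 and 4 members were at least 1.5-fold higher. The mix of cells inside a cluster was not tested.

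**Figure D3:**
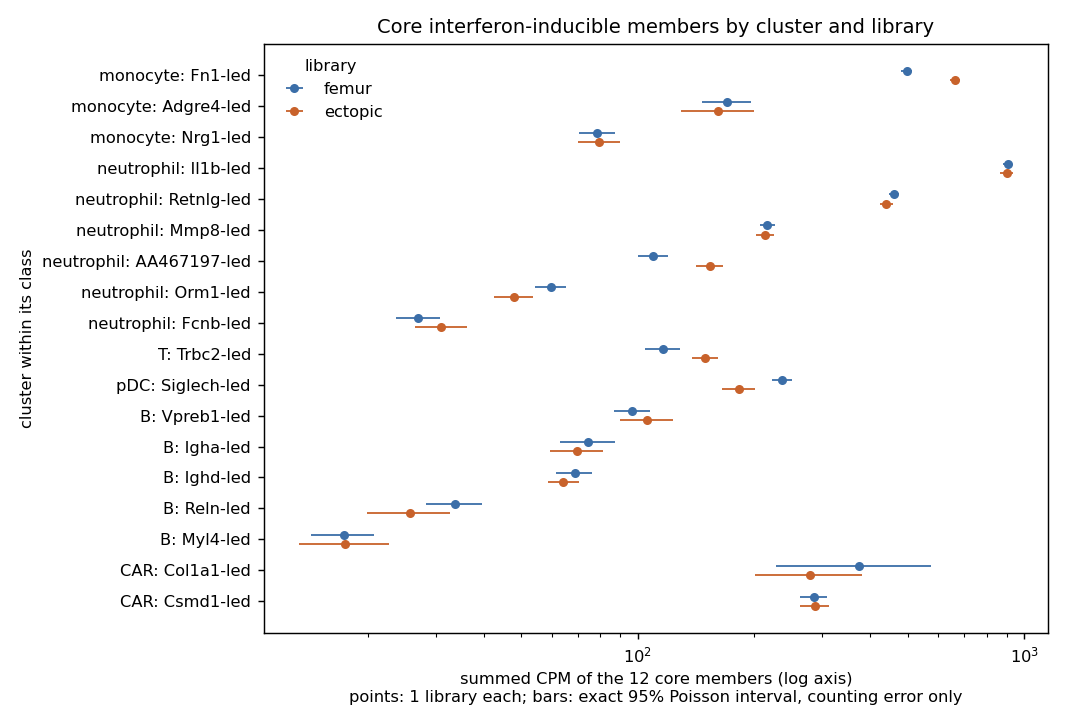
Summed CPM of the 12 core members in each cluster of the 6 classes, femur and ectopic side by side, with exact Poisson intervals as bars. The ectopic point lies to the right of the femur point in the Fn1-led monocyte-like cluster (497 and 662 CPM), while the Il1b-led neutrophil-like cluster has the highest level of all with no such gap (907 and 900.0). It also lies to the right in the AA467197-led neutrophil-like cluster (109.8 and 153) and the T cell cluster (116 and 149.5). The ectopic point lies to the left in the Orm1-led neutrophil-like (59.6 and 47.8) and the plasmacytoid cluster (236 and 183).

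Core members were not spread evenly over monocytes. Cells with at least 5 of the 12 core members detected numbered 106 of 921 in the femur (11.5%) and 137 of 626 in the ectopic library (21.9%), and they held 65.7% and 78.6% of the core UMIs. In the remaining cells the core level was 129 and 126 CPM. Since those cells were chosen by the core members themselves, these values are a description. With every cell thinned to 3000 UMIs, so that depth was equal, and with 57 femur and 13 ectopic cells below that depth left out, the share of monocytes with at least 3 core members was 7.99% of femur cells (exact binomial interval 6.27 to 9.998) and 13.4% of ectopic cells (10.8 to 16.3). Without thinning it was 26.6% and 41.4%. The B lineage, where the core members were lowest, had thinned shares of 0.649% and 0.742%. In the Fn1-led cluster the thinned share was 10.5% (60 of 572 cells) and 17.1% (80 of 467). A few cells carried much of some of the low genes: the 5 cells with most Ifit2 UMIs held 31.9% of femur and 32.1% of ectopic counts, and for Ifi44 the 5 top cells held 57.1% and 53.2%. For Irf7 they held 9.04% and 13.1%, and for the abundant Ifitm3 1.82% and 2.12%.

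**Figure D4:**
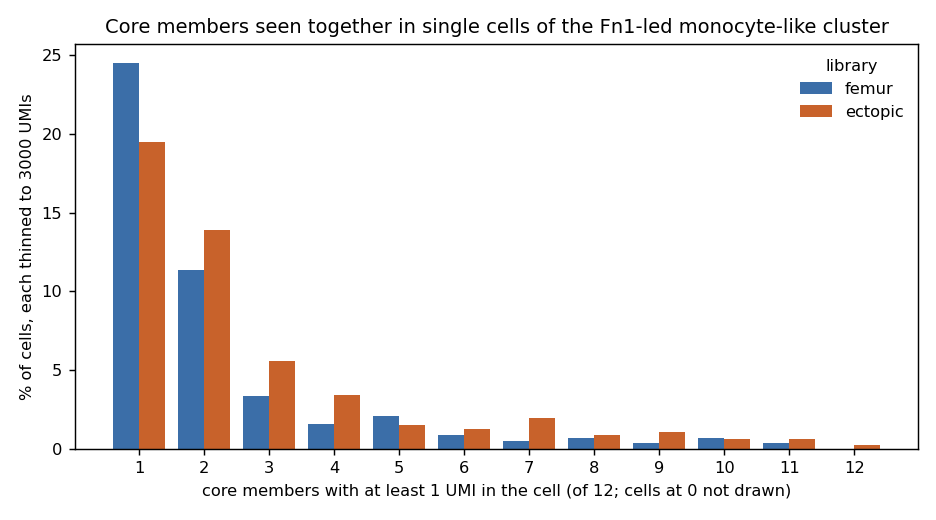
Share of cells of the Fn1-led monocyte-like cluster by the number of core members with a UMI (of 12, cells with none not drawn) after thinning to 3000 UMIs, for the femur and ectopic libraries. Cells with 3 or more core members make up 10.5% of femur and 17.1% of ectopic cells.

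In the monocyte class the 9 monocyte markers summed to 8795 and 9201 CPM. The 11 neutrophil markers summed to 1977 and 1740.1, the 7 myeloid progenitor markers to 674 and 484 and the 9 dendritic cell markers to 86.7 and 66.5. These sums cover the whole class, not the cells with many core members, and the remaining marker lists are not given here. The part of other cell types in the class ratios was not tested. Median depth was higher in the ectopic class, as given above, and its part in the class ratios was not tested beyond the thinned values.

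In neutrophils no member reached a 1.5-fold ratio in either direction, of 37 measured (2.42% of all genes were higher and 3.3% lower). A ratio above 1 was seen for 14 members (52.6% of all genes). The counting interval lay above 1 for 2 (18.0% of all genes) and below 1 for 13 (17.1%). Oasl2, an OAS-like protein, stood at 58.6 and 43.1 CPM (0.735, 0.688 to 0.786), and Oas2 at 31.0 and 23.2 (0.749, 0.683 to 0.821). Rtp4, a chaperone of G protein-coupled receptors, stood at 44.9 and 34.9 (0.778, 0.721 to 0.839), and Ifi207 at 2.27 and 1.57 (0.691). At the other end stood Bst2 (4.18 and 6.03, 1.44), Ifit3b (3.53 and 4.20, 1.19), Ifit2 (4.53 and 5.33, 1.18) and Ifit3 (6.09 and 6.995, 1.15). Among the most abundant members, Samhd1 (524 and 499), Ifi27l2a (142 and 138) and Trim30a, a brake on NF-κB signalling (103 and 91.5), had ratios between 0.886 and 0.972, Ddx60 had 0.880 and Ifitm3 1.01. The members not measured in neutrophils were Mx1, Mx2, Ifi44, Gbp3, Ifi205, Ifi213, Phf11b and Phf11d.

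The neutrophil clusters covered the widest range of core levels among the 6 classes. The summed core level was 27.0 and 31.0 CPM in the Fcnb-led cluster, 59.6 and 47.8 in the Orm1-led, 109.8 and 153 in the AA467197-led, 217 and 214 in the Mmp8-led, 461 and 439.9 in the Retnlg-led and 907 and 900.0 in the Il1b-led cluster. The order was the same in both libraries. The Fcnb-led cluster, led by granule genes of immature cells, was lowest, and the Il1b-led cluster was the highest of all clusters of the 6 classes. In the Il1b-led cluster Rtp4 stood at 160.0 and 142 CPM, Rsad2 at 148 and 157, and Oasl2 at 232 and 194. Ifit1 was higher in the ectopic cells there (22.4 and 40.4, 1.80, 1.41 to 2.31), while Isg15 was not (72.3 and 71.1, 0.984). The AA467197-led cluster had the largest core ratio (1.40, 1.24 to 1.58) and the Orm1-led the smallest (0.802, 0.689 to 0.932). The Il1b-led cluster was 28.0% of femur and 21.0% of ectopic neutrophils, and with the same cluster weights the class median log2 ratio was 0.02 in place of -0.07. Mx2 had no UMI in femur neutrophils, under a floor of 0.0667 CPM that a count of 0 allows (3 UMIs over the class), and 0.167 CPM in ectopic neutrophils.

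In T cells, 33 members were measured, 4 were at least 1.5-fold higher (3.35% of all genes were) and none was lower (4.3%). Oas3 stood at 6.34 and 13.7 CPM (2.16, 1.28 to 3.79) and Bst2 at 33.9 and 53.6 (1.58, 1.25 to 2.01). Ifit1 stood at 10.5 and 17.6 (1.69, 1.11 to 2.62), but 5 cells held 66.7% and 85.5% of its UMIs. With doublets kept its log2 ratio was -0.0817, and without the 5 cells of most core UMIs in each library it was -0.997, both in the opposite direction, and in that last setting 1 member was higher. Isg15, the fourth, stood at 7.61 and 11.6 (1.53), with an interval that held 1 (0.920 to 2.60). The lowest ratios were those of Mx1 (12.4 and 9.52, 0.770), Slfn5 (43.1 and 33.4, 0.776), Ddx60 (59.0 and 47.1, 0.799) and Ifi213 (77.7 and 62.9, 0.810). The log2 ratio of Mx1 was 0.60 without those 5 cells, the opposite direction, and -1.31 with doublets kept, against -0.38. The members that T cells expressed most, Samhd1 (236 and 226), Ifi27l2a (218 and 193), Ifi203 (186 and 171), Trim30a (123 and 123) and the GTPase Ifi47 (85.9 and 90.5), had ratios between 0.887 and 1.05. The 12 members not measured in T cells were Ifit3b, Oas1a, Oas2, Oasl1, Oasl2, Mx2, Ifi44, Ifi204, Ifi205, Ifi207, Ifi211 and Phf11d.

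In plasmacytoid dendritic cells, 28 members were measured and 11 had a ratio above 1 (49.9% of all genes). The members' median was not stable in direction: it lay above 0 with at least 1500 UMIs per cell, with at most 5% mitochondrial UMIs, with doublets kept, at a Leiden resolution of 2 and in thinned cells, between 0.05 and 0.15. Here 1 member was at least 1.5-fold higher (4.91% of all genes were) and 2 were lower (4.67%). The lower ones were Ifit2, at 20.2 CPM (16.2 to 24.9) in femur cells and 10.1 (6.31 to 15.2) in ectopic cells, a ratio of 0.499 (0.298 to 0.804), and Ifi44, at 49.5 and 33.0 (0.666, 0.502 to 0.873). In thinned cells their log2 ratios were -2.11 and -1.23, while Ifi44 fell short of the limit under 6 alternatives, at -0.28 to -0.58, and Ifit2 under 1, the mean of per-cell CPM (-0.58). Stat2, a factor of type I signalling, stood at 131 and 97.0 (0.741, 0.630 to 0.869) and Isg15 at 20.6 and 15.6 (0.754, 0.493 to 1.13). The summed core level was also lower in the ectopic cells, with a ratio of 0.773 (0.687 to 0.869). Irf7, which these cells need for interferon production, stood at 110.3 and 90.2 (0.818, 0.689 to 0.967). The most abundant members were Bst2, at a ratio of 1.04 (1.001 to 1.08), Trim30a (397 and 352, 0.886), Ifi27l2a (306 and 416, 1.36), Samhd1 (178 and 213, 1.20) and Ifi203 (184 and 206, 1.12). Xaf1, a promoter of apoptosis (9.17 and 12.8, 1.40), and Parp14 (37.6 and 47.6, 1.27) were among the 4 highest ratios. Members not measured here were Ifit1, Ifit3, Ifit3b, Oas1a, Oas2, Oas3, Oasl1, Ddx60, Zbp1, Rtp4, Gbp2, Gbp7, Ifi204, Ifi205, Ifi211, Ifi213 and Phf11d.

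The 1 member that was higher in these cells was Ifitm3, at 46.3 and 198 CPM (4.28, 3.61 to 5.08). The 5 cells with most of its UMIs held 35.1% of them in femur and 60.7% in ectopic cells. At a Leiden resolution of 0.5 its log2 ratio was 0.47, in place of 2.10. Monocyte markers were higher in the same class. Their sum over 9 markers was 1036 and 1854 CPM in this class, with Ccr2, which plasmacytoid cells also express, at 115 and 304 and Csf1r at 12.6 and 33.0. Their part in the Ifitm3 ratio was not tested.

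In the B lineage, 38 members were measured and 30 had a ratio above 1 (49.4% of all genes), with 1 at least 1.5-fold higher (5.08% of all genes) and 1 lower (7.14%). The higher one was Slfn5, a member of the Schlafen family, at 10.4 and 18.9 CPM (1.81, 1.52 to 2.16). With the same cluster weights its log2 ratio was 0.30, against 0.85, that of Phf11b -0.03 and that of Ifi44 0.40. The lower one was Rsad2, at 1.92 and 1.08 (0.560, 0.303 to 0.997). Phf11b (12.6 and 18.8, 1.49), Gbp7 (10.4 and 14.5, 1.40) and Ifit3 (2.15 and 2.99, 1.39) came next above, and Ifi44 (2.67 and 2.03, 0.761), Ifit2 (9.32 and 7.95, 0.853) and the RNA sensor Ifih1 (5.11 and 4.60, 0.902) next below. The levels that B cells had highest were those of Ifi27l2a (275 and 303), Samhd1 (224 and 289, 1.29), Ifi209, Ifi203 (160.0 and 179) and Trim30a (91.1 and 101). Ifit1, Ifit3b, Ifi204, Ifi205, Ifi207, Ifi211 and Phf11d were not measured in this class.

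The 5 B lineage clusters differed from each other more than the libraries did. The summed core level was 96.7 and 106 CPM in the Vpreb1-led cluster of early precursors, 74.3 and 69.7 in the Igha-led, 68.7 and 64.2 in the Ighd-led, 33.6 and 25.8 in the Reln-led and 17.3 and 17.5 in the Myl4-led cluster, the same order in both libraries. Each of the 5 core ratios had an interval that held 1. Inside these clusters the members' median log2 ratios lay between -0.02 and 0.06, below the 0.17 of the class as a whole. The Ighd-led cluster, which had a higher core level than the Reln-led and Myl4-led ones, was 33.1% of the femur class and 53.4% of the ectopic one. With the same cluster weights the class median was 0.0046.

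In CAR cells, members lay past the limit in both directions. Of 32 measured, 6 (18.8%) were at least 1.5-fold higher in ectopic cells, where 10.2% of all genes were, and 7 (21.9%) were lower, where 10.3% of all genes were, with a median log2 ratio of -0.04. The higher ones held all 4 measured PYHIN genes, whose human relatives sense DNA in cytoplasm and nucleus. Ifi203 stood at 29.6 CPM (22.8 to 37.9) in femur and 67.6 (56.3 to 80.4) in ectopic CAR cells, a ratio of 2.28 (1.67 to 3.14). Ifi204 stood at 47.9 and 103 (2.15, 1.69 to 2.76), Ifi211 at 42.8 and 87.8 (2.05, 1.58 to 2.68), and Ifi207 at 7.05 and 21.8 (3.09, 1.68 to 6.02). The ectopic value was the higher one for all 4, from 15 to 102 UMIs per gene for the femur and 41 to 194 for the ectopic cells. In thinned cells the log2 ratio of Ifi203 was 0.33, against 1.19. As the mean of per-cell CPM that of Ifi207 was 0.17, against 1.63. Ifi213, whose promoter is printed above, had 0 UMIs in both libraries, under the floor of 3 UMIs, which stands at 1.41 and 1.60 CPM.

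Bst2 was the most abundant of the higher members, at 302 (279 to 326) and 481 CPM (449.8 to 513), a ratio of 1.59 (1.44 to 1.76). Trim30a was the sixth, at 33.8 and 52.2 (1.54, 1.13 to 2.12). The lower members included 3 of the 4 interferon-inducible GTPases. Gbp2 stood at 96.4 (83.6 to 111) and 39.4 (30.9 to 49.4), a ratio of 0.409 (0.309 to 0.536), Gbp3 at 36.2 and 16.0 (0.441, 0.279 to 0.681), and Ifi47 at 82.3 and 50.6 (0.615, 0.474 to 0.793). The fourth GTPase, Gbp7, stood at 84.1 and 85.2 (1.01). Zbp1, a sensor of Z-form nucleic acid that can trigger necroptosis, stood at 29.1 and 14.4 (0.493, 0.302 to 0.786). Ifi44 had the lowest ratio, at 38.1 and 7.98 (0.210, 0.112 to 0.367), and Herc6 stood at 48.4 and 25.5 (0.528, 0.367 to 0.750). Usp18 was also past the limit (19.7 and 11.7), but its interval held 1 (0.337 to 1.02). With doublets kept, the log2 ratio of Ifi44 was -1.13 and that of Ifi207 0.81, against -2.25 and 1.63.

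The CAR class joined 2 clusters of unlike depth. The Csmd1-led cluster held 195 femur and 126 ectopic cells, and the Col1a1-led cluster, of few UMIs per cell (medians 1038 and 1475), held 43 and 56, which was 18.1% and 30.8% of the class. In the Csmd1-led cluster alone, 31 members were measured, 6 were at least 1.5-fold higher (10.4% of all genes) and 7 lower (9.78%). Bst2 stood there at 282 and 451 CPM (1.60, 1.44 to 1.79) and Gbp2 at 98.4 and 29.4 (0.299, 0.216 to 0.408). In the Col1a1-led cluster 2 members reached 50 UMIs, and neither was higher in the ectopic cells: Bst2 stood at 1080.5 and 826 (0.765, 0.555 to 1.06) and Ifitm3 at 3465 and 2628 (0.759, 0.635 to 0.909). Below that minimum, Gbp2 ran against its direction in the Csmd1-led cluster, with 1 femur and 23 ectopic UMIs (18.6 and 157 CPM, 8.43, 1.37 to 347). Gbp3 had 6 and 1 UMIs there, lower in the ectopic cells. With the same cluster weights in both libraries the class log2 ratio of Bst2 was 0.55, short of the limit, against 0.67.

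**Figure D5:**
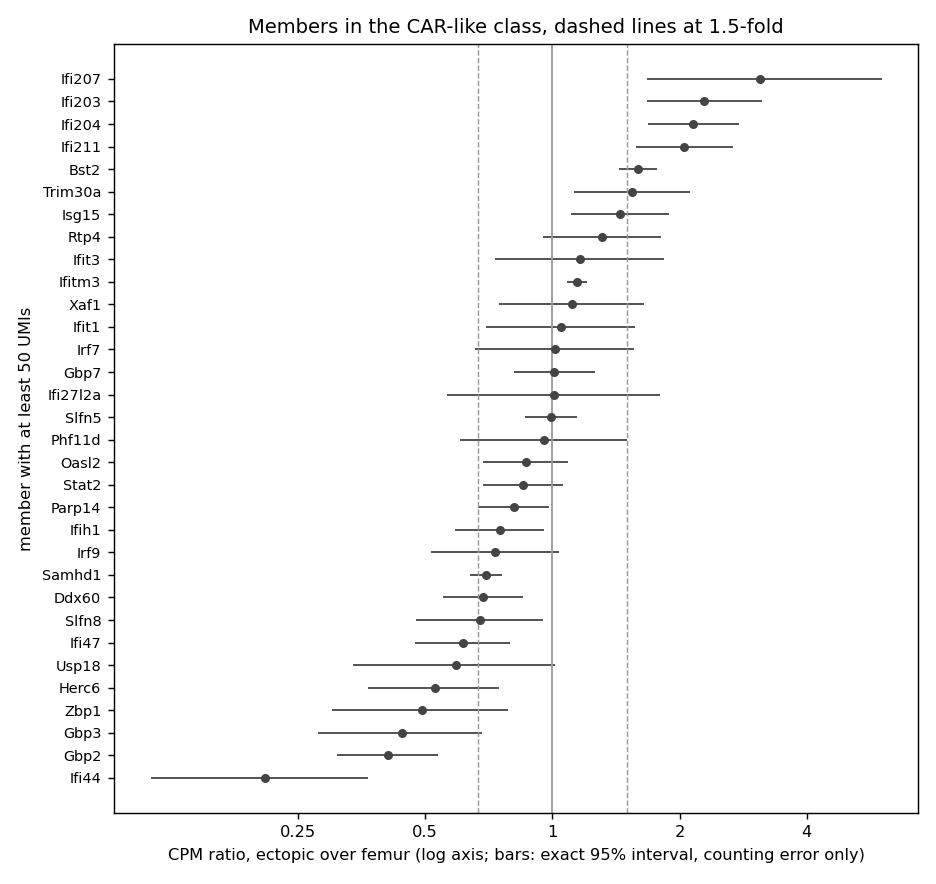
Ectopic over femur CPM ratio of the 32 measured members in CAR cells (log axis), with exact 95% intervals as bars and dashed lines at 1.5-fold. Ifi207, Ifi203, Ifi204, Ifi211, Bst2 and Trim30a lie to the right of the lines and Ifi44, Gbp2, Gbp3, Zbp1, Herc6, Usp18 and Ifi47 to the left.

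Most of the measured core members in CAR cells did not follow either group. Isg15 stood at 47.9 and 69.2 CPM (1.44, 1.10 to 1.89), and the 7 core members that were measured had a median log2 ratio of 0.07, with 1 of them, Usp18, past the limit. Ifitm3, the most abundant member in these cells, had a ratio of 1.14 (1.08 to 1.21) and Samhd1 stood at 611 and 426 (0.698, 0.638 to 0.762). Slfn5 stood at 198 and 197 and Parp14 at 121 and 97.9. The other measured members, among them Irf7 (22.6 and 22.9), Oasl2 (81.8 and 70.8) and Ddx60 (108 and 74.0), had ratios between 0.674 and 1.31. Of the 13 members that were not measured (Ifit2, Ifit3b, Oas1a, Oas2, Oas3, Oasl1, Rsad2, Mx1, Mx2, Ifi205, Ifi209, Ifi213 and Phf11b), Oas3, Mx1 and Ifi213 had no UMI in the ectopic class. The core members Rsad2 (17 and 2 UMIs, 0.133, 0.0149 to 0.561) and Oasl1 (20 and 5, 0.283, 0.0830 to 0.777) had intervals below 1. For Rsad2, 70.6% of the femur UMIs lay in 1 cell. Mx2 (21 and 6, 0.323, 0.107 to 0.829) also had an interval below 1. Oas1a (6 and 12, 2.26) and the PYHIN gene Ifi205 (2 and 7, 3.96) had ratios above 1, with intervals that held 1. The PYHIN gene Ifi209 (7 and 3, 0.485) had a ratio below 1, with an interval that held 1, as did Ifit2, Ifit3b, Oas2 and Phf11b.

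Other cell types' markers were present in the CAR class, and the neutrophil sum was above the CPM of any single member in both libraries. The 9 monocyte markers summed to 250.1 and 208 CPM, with Csf1r at 134 and 50.6. The 11 neutrophil markers summed to 1832 and 2254, with S100a8 at 645 and 796, and the leukocyte gene Ptprc stood at 25.9 and 21.3. The macrophage genes C1qa and Adgre1 were at 1 and 7 UMIs in femur CAR cells and at 0 and 1 in ectopic ones. In CAR cells with no Ptprc UMI the log2 ratio was 1.20 for Ifi203, 1.15 for Ifi204 and 0.59 for Bst2, against 1.19, 1.11 and 0.67 in all CAR cells. For Ifi44 it was -2.51 against -2.25, and for Gbp2 -1.09 against -1.29. Gbp2 rested on few cells: 5 held 51.2% of its femur UMIs and 39.2% of its ectopic UMIs, and as the mean of per-cell CPM its log2 ratio was -0.05. In thinned cells it was -0.48, and that of Gbp3 -0.41 against -1.18.

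The genes upstream of the members were measured from lists of ligands, receptors, factors and sensors. Counts past 1.5-fold are read against the shares of all genes given above. The list of 18 type I interferon ligands had no gene at 50 UMIs in any of the 6 classes. Ifng, the type II ligand, was measured in T cells alone, at 27.9 and 19.3 CPM (0.691, 0.506 to 0.943). Of the 9 receptors and kinases, CAR cell Ifngr1 was the only one past 1.5-fold in the 6 classes, at 173 and 280.5 (1.62, 1.41 to 1.85). The type I receptor chain Ifnar1 had its lowest ratio in plasmacytoid dendritic cells, at 138 and 95.2 (0.691, 0.587 to 0.810). In CAR cells the factors Irf8 (57.8 and 20.2, 0.350) and Irf2 (232 and 134, 0.579) were lower, while the DNA-sensing adaptor Sting1 (13.2 and 29.3, 2.22, 1.39 to 3.64) and the feedback inhibitor Socs1 (17.4 and 34.1, 1.96, 1.29 to 3.02) were higher. Irf8 is also a marker of the plasmacytoid class, where it stood at 3368 and 2845.

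Of the 7 STAT and IRF factors outside the members, none was past 1.5-fold in monocytes, neutrophils, plasmacytoid dendritic cells or the B lineage, and in T cells Irf8 was higher (14.9 and 24.8, 1.67). Ifnar1 stood at 59.1 and 58.4 CPM in monocytes (0.989, 0.890 to 1.10). Of the 12 sensors and adaptors in the files, none was past 1.5-fold outside CAR cells, where Sting1 was higher and Ddx58, which encodes the RNA sensor RIG-I, was lower (103 and 59.6, 0.579). Of the 6 negative regulators, Socs1 was higher in monocytes (2.88 and 5.24, 1.82, 1.19 to 2.82) as in CAR cells, and Socs3 was higher in the B lineage (2.11 and 3.89, 1.84).

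Interferon-stimulated genes outside the 45 were taken from a list of 60, of which 59 were in the files. In monocytes 52 were measured, 6 were at least 1.5-fold higher and 1 lower (2.29% and 3.23% of all genes were). The higher ones included Ifi208 (3.19 and 7.90 CPM, 2.48), Gbp5 (4.35 and 8.84, 2.03) and Slfn4 (10.2 and 20.4, 2.01), and the lower one was the chemokine Ccl5 (9.10 and 3.52, 0.387). In neutrophils the counts were 1 higher and 1 lower of 47 (2.42% and 3.3% of all genes). The lower one was Ifitm1, a relative of Ifitm3 (157 and 64.4, 0.411). In T cells they were 4 and 0 of 45 (3.35% and 4.3% of all genes). The chemokine Cxcl10 was the largest of these (3.80 and 25.5, 6.71), with 87.3% of its ectopic UMIs in 1 cell. In plasmacytoid dendritic cells they were 3 and 1 of 36 (4.91% and 4.67% of all genes). Among the higher ones was Ifitm2, another relative of Ifitm3 (13.3 and 60.0, 4.51). In the B lineage they were 2 and 1 of 50 (5.08% and 7.14% of all genes), with Shisa5 (229.7 and 366, 1.59) and Lgals9 (347 and 235, 0.675).

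CAR cells had the most genes past the limit in this longer list, with 3 higher and 13 lower of 35 measured. The lower genes included the GTPases Gbp5 (38.5 and 13.3 CPM, 0.345) and Iigp1 (613 and 289.5, 0.472), as they did Gbp2, Gbp3 and Ifi47 among the members. Ifitm1 was lower as well (107 and 23.9, 0.223), as was Cxcl10 (186 and 33.5, 0.180), of which 72.2% of femur UMIs lay in 1 cell. Trim30d, a relative of Trim30a, was higher, as Trim30a was (16.5 and 33.0, 2.01).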

How the data were processed

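Each deposited matrix holds raw counts of UMIs for every gene and barcode. The file headers name Cell Ranger 7.0.1 as the authors' counter, and the submitters' processing notes give GRCm39. The annotation behind the counts is not given in the sources used here, so genes carry the symbols of the feature lists, and promoter coordinates are those of RefSeq on GRCm38.p6. Cells were kept with at least 500 UMIs, 300 genes and at most 10% mitochondrial UMIs (10665 femur and 6794 ectopic). Doublets were scored per library after the method of Scrublet, and the cells of highest score were removed, in a share that grew with the number of cells (910 and 369 cells).

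Both libraries were clustered together (scanpy 1.11.5, igraph 0.11.9, Leiden resolution 1) on 2000 variable genes, 30 principal components and 15 neighbours. The 45 members, the other interferon lists, Xist, Y-linked, mitochondrial and ribosomal genes were left out of those genes. Clusters were named from marker lists of 25 cell types by the markers among the 10 genes of highest fold, with ties settled after the clusters were seen. Unnamed clusters held 2.34% of femur and 2.47% of ectopic cells.

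For each class and library, UMIs were summed over cells and scaled to CPM. Ratios have exact conditional binomial intervals, levels exact Poisson intervals and shares of cells Clopper-Pearson intervals, all at 95% and all for counting error only. The functions for ratios and intervals were tested on simulated data. The scripts ran in Python 3.11.15 (scipy 1.17.1, numpy 2.4.6, pandas 2.3.3), and edgeR 4.0.16 in R 4.3.3 gave TMM factors alone. The members and lists were chosen with earlier results of these data known. In each class the rule named, among measured members, the 5 of highest CPM and the 4 of highest and of lowest ratio, and up to 3 of highest and 3 of lowest ratio from the other lists. A few genes the rule takes are not printed, and other genes named, and the promoters printed, were picked with their values known.

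The alternatives were Leiden resolutions of 0.5 and 2, other cell filters, doublets kept, clustering with the interferon genes, scaling by median of ratios or by TMM, cells thinned or averaged as per-cell CPM, equal cluster weights, other minimum UMIs and a fold of 2. The classes without their 5 cells of most core UMIs, CAR cells with no Ptprc UMI, CAR cells without the low-UMI cluster and the Fn1-led cluster alone were added after the data were seen.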

Additional observations from a re-analysis of the deposited data

Results flagged for a closer look

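Since all 45 members had a ratio above 1 in monocytes, any member below 1 in another class lay on the opposite side by definition. For some members, such as Ddx60 and Ifi209, the monocyte interval held 1. For Ifit2, Ifi44 and Gbp2 the ratio was also past 1.5-fold in opposite directions, and none of these differences between classes was tested. Ifit2 had a ratio of 1.92 in monocytes and 0.499 in plasmacytoid dendritic cells, 3.84 times apart. Ifi44 had 2.47 in monocytes and 0.666 in plasmacytoid dendritic cells, 3.71 times apart, and 0.210 in CAR cells, 11.8 times below the monocyte ratio. Gbp2 had 1.53 in monocytes and 0.409 in CAR cells, 3.75 times apart. In femur CAR cells 5 cells held 51.2% of the Gbp2 UMIs, and its ratio moved with the processing, as given above. The monocyte ratio of Ifi44 rested on 21 femur and 47 ectopic UMIs.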

How the results depend on the processing

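No paired analysis was possible because each tissue had 1 library. In monocytes the count of members at least 1.5-fold higher, 8 as reported, lay between 1 and 15 over the alternatives, and no member was at least 1.5-fold lower under any of the 16. It was 13 with at least 1500 UMIs per cell, 14 at Leiden resolutions of 2 and 0.5 and with the interferon genes kept for clustering, 15 as a mean of per-cell CPM, 5 with at most 5% mitochondrial UMIs, 4 with the same cluster weights and 1 at a fold of 2. Shares of all genes under each alternative are not given here, for this class or the others. The counts therefore show only how far the count itself moved. The monocyte median log2 ratio lay between 0.20, with the same cluster weights, and 0.42. The neutrophil median, -0.07 as reported, was -0.0345 at a resolution of 2, -0.0393 in thinned cells, -0.0359 with a minimum of 20 UMIs, -0.10 without the 5 cells of most core UMIs, and 0.0173 with the same cluster weights, the opposite direction. The median also turned direction in plasmacytoid dendritic cells (-0.20 as reported) under 5 alternatives, up to 0.153 with at most 5% mitochondrial UMIs, in T cells (0.08) in thinned cells at -0.0358, and in CAR cells (-0.04), where it lay between -0.350 with no Ptprc UMI and 0.133 in thinned cells. These 3 stayed within the counting intervals of the members in the middle. In T cells Ifit1 had a log2 ratio of -0.0817 without doublet removal and -0.9965 without the 5 cells of most core UMIs, the opposite direction in both. The count of higher T cell members lay between 0, in thinned cells, and 7, with no minimum. In plasmacytoid dendritic cells the counts lay between 1 and 8 higher and 1 and 7 lower, with the larger ones at no minimum. In the B lineage they lay between 0 and 3 higher and 0 and 7 lower, with 7 lower without doublet removal. In CAR cells they lay between 3 and 8 higher and 0 and 13 lower. In thinned cells 14 members reached 50 UMIs, 3 were higher and 0 lower, and with no minimum 13 were lower. The B lineage share of cells with at least 3 core members, 1.14 as a ratio, was 0.523 at 5 core members.

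The summed core level of monocytes was 280.4 CPM in the femur at both other resolutions, and 433 and 432 in the ectopic library at resolutions of 2 and 0.5. That of femur neutrophils was 270.4 at a resolution of 2. That of plasmacytoid dendritic cells was 315 and 183 in the femur and 267 and 162 in the ectopic library. The cause of these differences was not tested. For single genes, 815 of 938 values in 77 pairs of gene and class moved by less than their counting interval, 121 moved by more, and 2 of those past 1.5-fold as reported turned direction. Depth limits the members with few UMIs most, in CAR cells, T cells and plasmacytoid dendritic cells.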

Other observations

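Classes outside the 6 had their own patterns, given as values. The dendritic cell class, with 85 femur and 134 ectopic cells, had 43 members measured, with a median log2 ratio of 0.04 (all genes -0.01). Ifi27l2a stood there at 555 and 1041 CPM, a ratio of 1.87 (1.71 to 2.06), and Isg15 at 24.5 and 42.5 (1.73, 1.11 to 2.79). Ddx60 had the lowest ratio, at 41.5 and 24.9 (0.601, 0.396 to 0.916). The share of dendritic cells with at least 3 core members after thinning to 3000 UMIs was 18.5% and 19.4%.

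In myeloid progenitors, with 269 and 89 cells, 27 members were measured, 6 had a ratio above 1 (39.2% of all genes did), and the median log2 ratio was -0.35 (all genes -0.09). Oasl2 stood there at 11.2 and 4.24 CPM (0.379, 0.194 to 0.684), Ifi209 at 35.4 and 19.2 (0.544, 0.403 to 0.724), Stat2 at 19.9 and 11.7 (0.592, 0.399 to 0.856) and Trim30a at 66.8 and 49.3 (0.737, 0.611 to 0.886). These 4 were picked with their values known. No member was at least 1.5-fold higher (2.06% of all genes were) and 10 were lower (9.13%). Among the members above 1 were Isg15 (4.73 and 6.85, 1.45, 0.803 to 2.55) and Rsad2 (5.26 and 7.83, 1.49, 0.858 to 2.53). For Rsad2, 79.2% of the ectopic UMIs lay in 1 cell. This class joined cells with granule genes and cells with stem cell genes such as Mecom and Meis1, and the mix within it was not compared between libraries.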
